A study of Mus musculus with 6 samples.

Results

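The collagen genes are the rows of the deposited mouse expression table whose symbol is Col, then digits, then a, then digits, such as Col1a1. The table held 42 of them among 15667 genes, and 40 reached a mean of 1 CPM (counts per 1000000 reads) and were tested with the 14306 genes that did so. RNA was sequenced from punch biopsies of ear skin at the site of tick bites in adiponectin wild-type mice (Adipo+/+, WT, n = 3) and in littermates homozygous for the null allele Adipoq tm1Chan (Adipo-/-, KO, n = 3). All mice were tick-bitten females of mixed B6;129 background. Skin without a tick was not analysed here, so the values compare genotypes in bitten skin and give no response to the bite. The null allele is present in every cell, and loss in fat cannot be separated from loss elsewhere.

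Collagens are triple-helical proteins of the extracellular matrix, each built from 3 alpha chains. These are products of different genes or copies of the chain from a single gene. The fibrillar types I, III and V form the load-bearing fibrils of the dermis and are made mainly by fibroblasts, while the fibril-associated types (FACIT) decorate their surface. Type IV forms the sheet-like network of basement membranes, type VI a beaded filament around cells, type VII the anchoring fibrils under the epidermis, and type XVII spans the membrane of basal keratinocytes. Types II, IX, X and XI belong to cartilage, which forms the central plate of the mouse ear.

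The steps between CPM values gave implied depths of 3403773 to 6591433 reads per library, so that 3 reads, taken as the detection floor, equal 0.455 to 0.881 CPM. Adipoq was at 30.5, 63.7 and 49.6 CPM in WT and at 0, 0.560 and 0 in KO, with a log2 fold change of -6.17 ± 0.41 (SE) and an adjusted p of 0.00322 by limma with Benjamini-Hochberg adjustment, in the direction of the genotype labels. Without WT replicate 2 that adjusted p was 0.0683 and the log2 fold change -5.94. The libraries differed in tissue makeup. The 14 hair follicle keratin and trichohyalin genes together gave 8.47, 9.97 and 23533 CPM in WT and 1857, 9362 and 955 in KO, and 6 of the 14 genes were at 0 in both WT1 and WT2. The defining markers of fibroblasts, cartilage, endothelium and skeletal muscle were all above 0 in each library.

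Together the 42 collagen genes took 0.790%, 0.930% and 0.911% of reads in WT and 0.879%, 1.09% and 1.16% in KO. KO1 lay inside the WT range, and the other KO libraries lay above it. Col1a1, Col1a2, Col3a1 and Col17a1 held 64.1% to 69.9% of all collagen reads in each library.

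Per kilobase of transcript, Col17a1 had the highest level of the family, with a mean of 351 CPM per kb over the 6 libraries and a range of 320.9 to 394. This is the hemidesmosome collagen of basal keratinocytes. Col3a1 followed at 333 CPM per kb, Col1a1 at 241 and Col1a2 at 223. The ranges of Col17a1 and Col3a1 overlapped, since Col3a1 spanned 251 to 438 CPM per kb. A gap followed. The fifth gene, Col8a1, a short-chain collagen of vessel walls and specialised basement membranes, was at 66.7 CPM per kb, close to Col6a1 at 66.4. The remaining type VI chains Col6a2 and Col6a3 were at 48.0 and 41.7 CPM per kb, and the ubiquitous type IV chains Col4a1 and Col4a2 at 38.1 and 30.4. The cartilage collagens were far lower, with Col11a1 at 5.39 CPM per kb, Col2a1 at 4.96 and Col9a2 at 0.846. At the bottom stood Col24a1 at 0.203 CPM per kb and Col19a1 at 0.154.

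**Figure D1:**
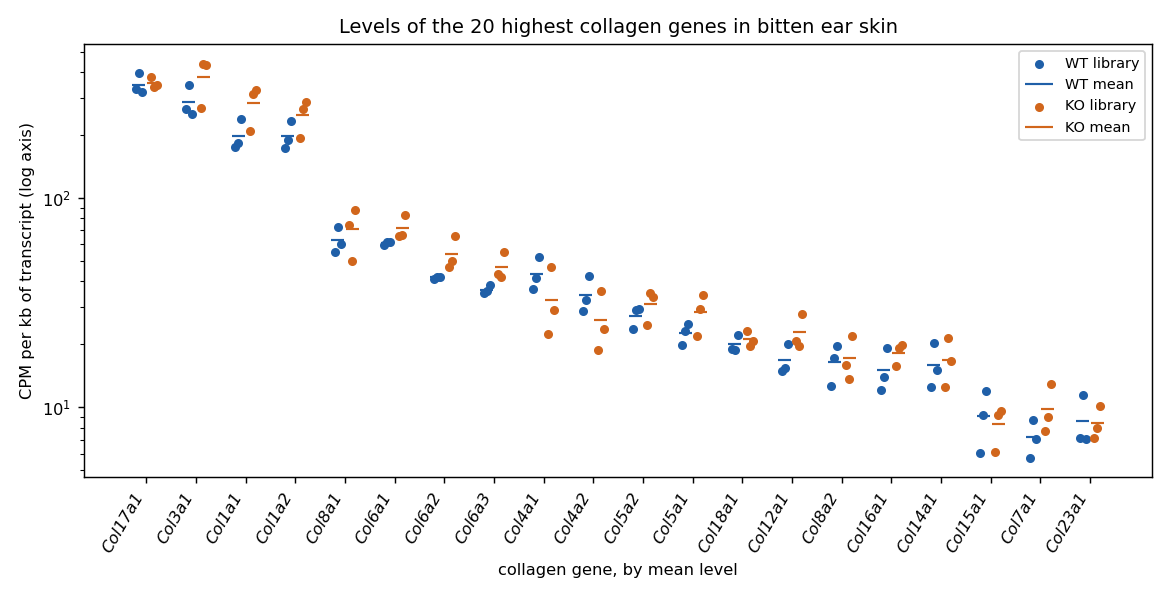
Level of the 20 collagen genes with the highest mean, in CPM per kb of transcript on a log axis; points are libraries (3 WT in blue, 3 KO in orange) and bars are group means. Col17a1, Col3a1, Col1a1 and Col1a2 stand at 174 CPM per kb or more in every library, and the WT points of Col6a1, Col6a2 and Col6a3 lie below all their KO points.

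The comparison of KO with WT asks how loss of adiponectin bears on gene expression at the bite site. Among the 40 collagen genes tested, 31 had a log2 fold change above 0 (77.5%), against 43.3% of all genes tested. The median log2 fold change of the collagen genes was 0.32, beside a median of -0.03 over all genes. Of the 9 collagen genes below 0, 5 were type IV chains. In these bulk samples fewer cells of a type and less RNA per cell cannot be told apart.

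No collagen gene passed the test after adjustment. By limma with Benjamini-Hochberg adjustment the smallest adjusted p among the 40 was 0.998, where 0.014% of all genes passed at 0.05. With limma voom on the recovered reads 0 collagen genes passed as well. At an unadjusted p below 0.05, 6 collagen genes were higher in KO (15.0%, against 1.06% of all genes), namely Col1a1, Col6a2, Col6a3, Col11a2, Col12a1 and Col27a1, and limma voom also gave 6. None was lower at that threshold by either tool, against 1.82% of all genes with limma. In 5 collagen genes every KO value lay above every WT value (12.5%, against 2.95% of all genes), namely Col6a1, Col6a2, Col6a3, Col11a2 and Col27a1. In none did every KO value lie below every WT value, against 4.89% of all genes. Intervals for single genes are 95% limma intervals of the log2 fold change, and an exact permutation test of 3 against 3 cannot go below a p of 0.1.

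**Figure D2:**
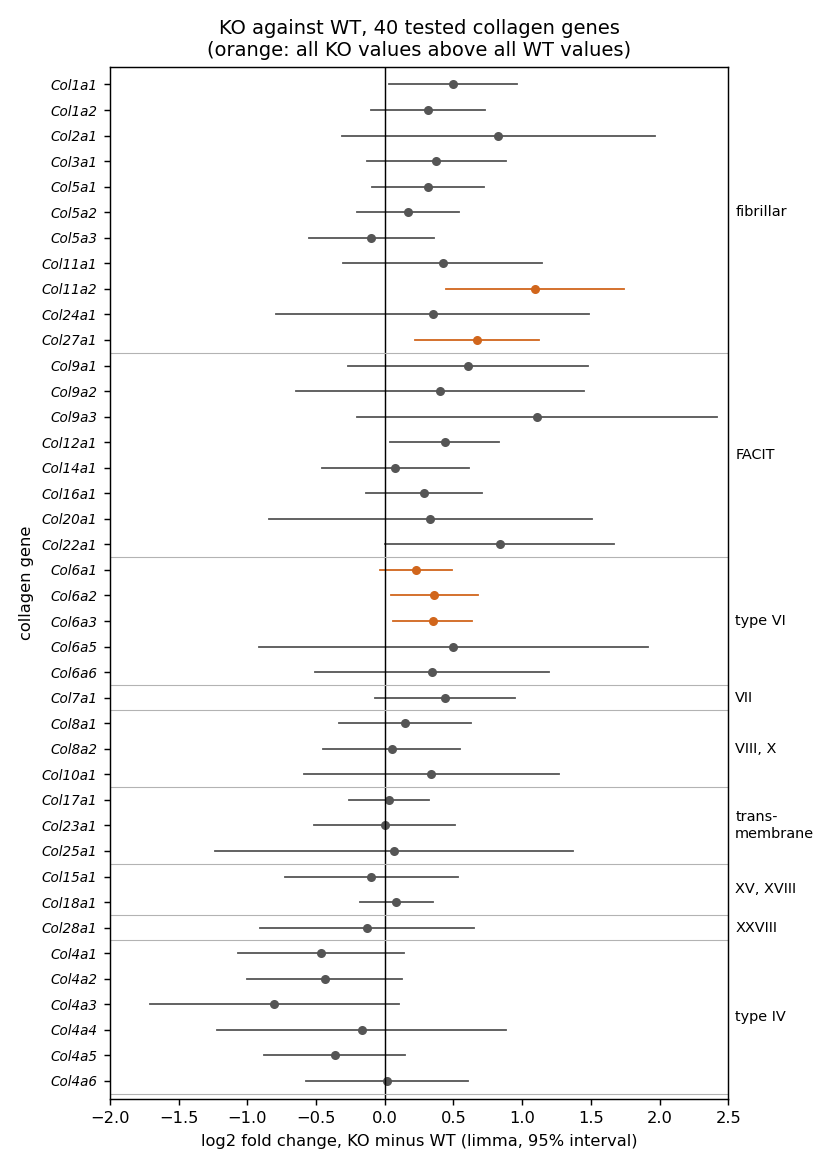
Log2 fold change of KO against WT for the 40 collagen genes tested, with the 95% interval from limma, grouped by collagen class; orange marks the 5 genes whose KO values all lie above the WT values. Of the fibrillar genes 10 of 11 lie to the right of 0, as do all 8 FACIT and all 5 type VI genes, and 5 of the 6 type IV genes lie to the left.

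Of the 11 fibrillar genes, 10 had a log2 fold change above 0, with a median of 0.38. Col1a1 (chromosome 11, 94936224 to 94953042, plus strand, mm10), the chain present in 2 copies in each type I molecule, was at 1035, 1089 and 1411 CPM in WT and at 1240.2, 1861 and 1939.7 in KO. KO1 lay within the WT range and the remaining KO libraries above it, for a log2 fold change of 0.50 ± 0.20 (SE, 95% interval 0.03 to 0.96). Col1a2, the partner chain of type I, was at 929, 1009 and 1242 CPM in WT and 1029.5, 1426 and 1531 in KO. The libraries stood in the same order as for Col1a1, and the log2 fold change was 0.32 (95% interval -0.10 to 0.73). Col3a1 (chromosome 1, 45311538 to 45349706, plus strand), the type III chain that mixes into the same dermal fibrils, was at 1479, 1927 and 1398 CPM in WT and 1493, 2437 and 2391 in KO. KO2 and KO3 were above all WT libraries and KO1 was inside their range, with a log2 fold change of 0.38 (95% interval -0.13 to 0.88).

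Type V collagen starts and limits the growth of type I fibrils. Col5a1 was at 167, 194 and 211 CPM in WT and 183, 247 and 289 in KO (log2 fold change 0.32, 95% interval -0.09 to 0.72), and Col5a2 at 157, 194 and 196 CPM in WT and 164, 233 and 222 in KO (log2 fold change 0.17, 95% interval -0.20 to 0.54). Col5a3, a minor type V chain, was the fibrillar gene with a log2 fold change below 0, at 42.6, 52.7 and 57.9 CPM in WT and 36.1, 56.6 and 51.7 in KO. Its difference of -0.10 was smaller than the spread between replicates. In all of these type V genes the groups overlapped and KO1 lay within or below the WT range. Of 10 fibroblast marker genes outside the collagen family, 9 had log2 fold changes below 0, Pdgfra and Dpt among them, and the summed level of the 10 was 682 to 960.2 CPM in WT and 700.0 to 786 in KO.

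The main type VI genes separated the groups. Col6a1, Col6a2 and Col6a3 encode the chains of the common type VI molecule, and in WT each varied little between libraries. Col6a1 (chromosome 10, 76708792 to 76726044, minus strand) was at 245, 252 and 252 CPM in WT and 270.2, 274 and 339.9 in KO, a log2 fold change of 0.23 ± 0.11 (95% interval -0.03 to 0.49). Col6a2 (chromosome 10, 76595756 to 76623630, minus strand) was at 202, 207 and 206 CPM in WT and 229, 246 and 323 in KO, a log2 fold change of 0.36 ± 0.14 (95% interval 0.04 to 0.68). Col6a3 (chromosome 1, 90766860 to 90843971, minus strand), the longest chain, was at 357, 365 and 386 CPM in WT and 440.0, 422 and 558 in KO, a log2 fold change of 0.35 ± 0.12 (95% interval 0.06 to 0.64). For all of these chains the lowest KO library was above the highest WT library, and KO3 was the highest. The WT standard deviations were 3.87, 2.34 and 15.2 CPM for Col6a1, Col6a2 and Col6a3, and those of KO were 39.3, 50.2 and 73.6 CPM. The chains Col6a5 and Col6a6, which can replace the Col6a3 chain, were low and scattered, with Col6a5 at 0.989 to 7.53 CPM in WT and 2.64 to 5.60 in KO. Col6a6 spanned 4.11 to 11.4 CPM in WT and 6.76 to 10.9 in KO, and neither gene separated the groups.

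The 2 collagen genes with the smallest p were both fibrillar and both low in skin. Col11a2 (chromosome 17, 34039138 to 34066684, plus strand), a type XI chain of cartilage fibrils, was at 6.29, 6.31 and 5.11 CPM in WT and 14.0, 8.97 and 17.9 in KO, from 26, 31 and 31 reads against 92, 32 and 61. No KO value overlapped WT, and the log2 fold change was 1.09 ± 0.28 (95% interval 0.44 to 1.74). Col27a1 (chromosome 4, 63215412 to 63334990, plus strand), a fibrillar collagen of cartilage and developing bone, was at 14.3, 11.8 and 14.8 CPM in WT and 18.1, 22.1 and 26.4 in KO. The groups again did not overlap, with a log2 fold change of 0.67 ± 0.20 (95% interval 0.22 to 1.13). Col11a2 stayed below an unadjusted p of 0.05 in all 19 alternative analyses and Col27a1 in 18 of the 19, while the adjusted p was never below 0.412 for Col11a2 or 0.656 for Col27a1.

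Printed here are the windows upstream of the genes whose groups did not overlap, so that their start regions can be compared. The window of Col3a1, the fibrillar collagen with the highest level, is printed beside them, although its groups overlapped. Each is the 250 bases before the gene start in RefSeq (build GRCm38.p6), on the gene's own strand, 5′ to 3′. Col6a1 is left out because its window runs into annotated transcript. Capitals mark matches, on either strand, to the CCAAT box (CCAAT or ATTGG), the GC box read by Sp factors (GGGCGG or CCGCCC) and the TATA box (TATAAA or TTTATA).
Col11a2, chr17:34038888-34039137, plus strand: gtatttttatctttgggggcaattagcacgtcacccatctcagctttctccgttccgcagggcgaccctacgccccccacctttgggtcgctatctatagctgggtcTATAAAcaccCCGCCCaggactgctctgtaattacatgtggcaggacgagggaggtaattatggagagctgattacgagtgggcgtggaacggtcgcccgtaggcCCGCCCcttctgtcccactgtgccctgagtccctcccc
Col27a1, chr4:63215162-63215411, plus strand: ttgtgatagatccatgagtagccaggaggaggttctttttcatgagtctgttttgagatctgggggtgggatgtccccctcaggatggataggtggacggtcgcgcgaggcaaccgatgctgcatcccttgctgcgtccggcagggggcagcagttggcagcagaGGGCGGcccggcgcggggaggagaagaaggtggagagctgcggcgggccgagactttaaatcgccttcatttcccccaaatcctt
Col6a2, chr10:76623631-76623880, minus strand: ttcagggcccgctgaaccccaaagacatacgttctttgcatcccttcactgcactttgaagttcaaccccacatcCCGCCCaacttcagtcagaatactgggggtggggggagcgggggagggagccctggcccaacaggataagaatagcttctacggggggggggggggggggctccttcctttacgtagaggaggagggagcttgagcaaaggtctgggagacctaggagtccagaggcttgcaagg
Col6a3, chr1:90843972-90844221, minus strand: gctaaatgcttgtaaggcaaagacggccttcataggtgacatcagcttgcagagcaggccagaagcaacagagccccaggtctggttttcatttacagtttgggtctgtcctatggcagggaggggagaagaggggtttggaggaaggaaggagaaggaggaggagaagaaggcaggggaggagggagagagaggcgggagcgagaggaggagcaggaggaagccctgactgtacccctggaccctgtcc
Col3a1, chr1:45311288-45311537, plus strand: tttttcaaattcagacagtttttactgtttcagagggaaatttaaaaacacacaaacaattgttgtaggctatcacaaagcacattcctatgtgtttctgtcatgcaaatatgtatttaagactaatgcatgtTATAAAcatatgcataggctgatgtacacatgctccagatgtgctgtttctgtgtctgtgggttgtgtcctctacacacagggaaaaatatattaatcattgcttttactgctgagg
The Col11a2 window held a TATAAA whose last base is 138 bases upstream of the start and, nearer the start, GC boxes with last bases 128 and 33 bases upstream. Col27a1 held a GC box 80 bases upstream, Col6a2 a GC box 170 bases upstream, and Col3a1 a TATAAA 112 bases upstream. Col6a2 has another window, not printed, which runs into annotated transcript. It held GC boxes with last bases 62, 10 and 6 bases upstream of its own start. The Col6a3 window held none of these letters. A gene can have more than 1 window, and was counted when any of its windows held the motif. Windows that run into annotated transcript, such as those of Col1a2 and Col4a2, were kept in these counts. Of the 34 collagen genes with a window, 12 held a CCAAT box (35.3%, against 37.5% of all 27025 genes with windows of this length), 20 a GC box (58.8%, against 35.4%) and 5 a TATAAA (14.7%, against 14.3%). The 27025 genes include genes absent from the expression table of 15667, so these shares compare unlike gene sets. No motif was shared by all the windows printed.

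The other cartilage collagens were also higher on average in KO, though without separation. All 7 genes of types II, IX, X and XI had a log2 fold change above 0, with a median of 0.61, and without these genes 24 of the remaining 33 collagen genes were above 0 with a median of 0.17. Col2a1, the main fibril of cartilage, was at 8.71, 25.8 and 18.6 CPM in WT and 23.7, 18.2 and 56.7 in KO. WT1 was the lowest library for Col2a1 and KO3 the highest, and the other KO values lay inside the WT range. The log2 fold change of 0.83 (95% interval -0.31 to 1.96) was 0.35 without KO3 and -0.078 without both WT1 and KO3. Type IX collagen sits on type II fibrils. Col9a3 was at 0.829, 2.64 and 3.63 CPM in WT and 4.40, 2.80 and 10.2 in KO, with a log2 fold change of 1.11 (95% interval -0.20 to 2.42), and Col9a1 was at 6.05, 4.88 and 4.45 CPM in WT and 8.50, 4.48 and 13.2 in KO. Col9a2 spanned 1.21 to 2.64 CPM in WT and 1.40 to 4.41 in KO. The groups overlapped for each type IX gene. Col11a1, the partner chain of Col11a2, was at 24.0, 29.3 and 55.4 CPM in WT and 41.9, 37.8 and 59.6 in KO, where WT3 stood beside KO3, and Col10a1, a marker of hypertrophic chondrocytes, was at 5.57, 10.6 and 8.41 CPM in WT and 10.2, 5.88 and 17.3 in KO.

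Col9a3 shares 230 bases with Tcfl5 on the opposite strand, and Col10a1 lies wholly inside Nt5dc1 on the opposite strand. Strand use in the counting was not stated in the sources read, so reads of Col10a1 and Nt5dc1 may not have been told apart. Among 10 cartilage markers that are not collagens, Acan and Comp among them, 7 had a log2 fold change above 0 and none was at an unadjusted p below 0.05. Together they gave 400.4, 625 and 714 CPM in WT and 426, 480.0 and 826 in KO, with WT1 lowest and KO3 highest. Col2a1, Col9a2, Col9a3, Col10a1 and Col11a1 had the same extremes, while Col9a1 and Col11a2 were lowest in WT3. These extremes were not particular to cartilage collagens, since Col1a1, Col6a1 and Col12a1 had them too. The part of the amount of cartilage in the values of the cartilage collagens was not tested. With a cartilage score as a covariate, the 7 cartilage collagens kept a median of 0.51, and Col11a2 was the single gene of the 7 at an unadjusted p below 0.05 (1.24% of all genes were higher at that threshold with this covariate).

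All 8 FACIT genes tested had a log2 fold change above 0, with a median of 0.42. Col12a1 (chromosome 9, 79598987 to 79718722, minus strand), which binds type I fibrils in dermis and tendon, was at 171, 178 and 231 CPM in WT and 238, 227 and 323 in KO. WT3 lay between KO2 and KO1, and the log2 fold change was 0.44 ± 0.17 (95% interval 0.04 to 0.83). Col16a1 was at 62.9, 72.8 and 100.1 CPM in WT and 81.6, 99.5 and 103 in KO, with a log2 fold change of 0.29 (95% interval -0.14 to 0.71). Col14a1, a close relative of Col12a1, did not differ beyond the spread, at 80.6, 130.4 and 97.3 CPM in WT and 80.9, 138 and 108 in KO. Its 95% interval was -0.46 to 0.61 on the log2 scale. Col22a1, a collagen of tissue junctions such as the muscle-tendon border, was low, at 2.90, 2.03 and 3.96 CPM in WT and 5.16, 3.92 and 8.23 in KO. These are 10 to 24 reads in WT and 14 to 34 in KO, and the log2 fold change was 0.84 ± 0.36. Col20a1 lay between 0.560 and 2.28 CPM, and Col19a1, with 0 to 7 reads per library, was not tested. Col7a1 (chromosome 9, 108953586 to 108984875, plus strand), the anchoring fibril collagen, was at 53.3, 80.8 and 65.6 CPM in WT and 71.5, 83.2 and 119 in KO. KO3 was the highest and KO1 lay among the WT values, with a log2 fold change of 0.44 (95% interval -0.07 to 0.95).

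Type IV collagen went the other way. Of its 6 genes, 5 had a log2 fold change below 0, with a median of -0.40, and none was at an unadjusted p below 0.05. Col4a1 (chromosome 8, 11198423 to 11312826, minus strand) was at 242, 276 and 346 CPM in WT and 148, 309 and 192 in KO. Col4a2 (chromosome 8, 11312805 to 11449287, plus strand), which forms the common type IV molecule with Col4a1, was at 187, 210.1 and 272 CPM in WT and 121, 233 and 153 in KO. In both genes KO1 and KO3 lay below all WT libraries and KO2 lay among them, and the log2 fold changes were -0.46 ± 0.26 (95% interval -1.06 to 0.14) and -0.44 ± 0.24. The genes lie head to head and share 22 bases at their starts.

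The remaining type IV chains serve particular basement membranes. Col4a5, on chromosome X, was at 21.1, 29.9 and 38.4 CPM in WT and 24.1, 20.5 and 22.6 in KO. WT2 and WT3 were above all KO libraries and WT1 was among them. Its neighbour Col4a6 was at 22.8, 35.0 and 43.7 CPM in WT and 28.4, 41.5 and 30.6 in KO, with a log2 fold change of 0.02. Col4a3 was at 1.94, 4.68 and 4.95 CPM in WT and 1.82, 1.96 and 1.76 in KO, which are 8, 23 and 30 reads against 12, 7 and 6, with a log2 fold change of -0.80 (95% interval -1.71 to 0.10). Col4a4 was at 2.42, 4.27 and 6.76 CPM in WT and 1.97, 5.04 and 4.70 in KO. All 6 type IV genes were highest in WT3 (19.9% of all genes were highest there), the library with the highest hair follicle sum. With a hair follicle score as a covariate, all 6 type IV genes were below 0, with a median of -0.58, and 4 were lower at an unadjusted p below 0.05 (against 4.14% of all genes). The part of the hair follicles in these values was not tested.

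Vessels, muscle fibres and fat cells are sheathed in type IV collagen, and their markers were lower in KO on average as well. Lower markers were not particular to these tissues, and 43.3% of all genes were above 0. Below 0 were also 9 of 10 fibroblast markers (median -0.19), 5 of 6 macrophage markers (median -0.10) and 4 of 6 neutrophil markers (median -0.48). Above 0 were 4 of 7 Schwann cell markers (median 0.14) and 3 of 7 basal keratinocyte markers (median -0.01). So were 7 of 10 cartilage markers (median 0.15) and all 14 hair follicle genes. All 7 endothelial markers had a log2 fold change below 0. Tek was the 1 endothelial marker lower at an unadjusted p below 0.05 (14.3% of the list, against 1.82% of all genes), with a log2 fold change of -0.67 (95% interval -1.11 to -0.22), and the 7 summed to 139.9, 151 and 144 CPM in WT and 95.3, 138 and 139 in KO. Of 6 mural cell markers tested 5 were below 0, with sums of all 7 listed of 271 to 348 CPM in WT and 247 to 307 in KO and Cnn1 at 0 in KO3. All 10 skeletal muscle markers were below 0, with sums of 4746, 5531 and 5944 CPM in WT and 2871, 3492 and 5701 in KO. Of these, 3 were lower at an unadjusted p below 0.05 (30.0%, against 1.82% of all genes), namely Myh1, Myl1 and Mylpf, which encode a fast myosin heavy chain and myosin light chains. Myh1 was at 1623, 1725 and 1707 CPM in WT and 1043, 1065 and 1479 in KO, with all KO values below WT and a log2 fold change of -0.51 (95% interval -0.86 to -0.16). The groups overlapped for Myl1 (log2 fold change -0.70, 95% interval -1.23 to -0.17) and Mylpf (-0.51, 95% interval -1.01 to -0.02). All 7 adipocyte markers were below 0, with a median of -0.72 and none at that threshold, and their sums were 459.6, 669 and 670.0 CPM in WT and 289, 714 and 353 in KO. KO1 and KO3 were below all WT libraries for the adipocyte sum and KO2 was above them, while for the muscle sum KO3 lay within the WT range. KO1 was the lowest library for the endothelial, mural, muscle and adipocyte sums. It was also the lowest for Col4a1, Col4a2 and Col4a4 (19.97% of all genes were lowest there). The remaining type IV genes were lowest elsewhere, Col4a3 in KO3, Col4a5 in KO2 and Col4a6 in WT1. The part of vessels, muscle and fat in the type IV values was not tested. With a muscle score as a covariate the median of the type IV genes was -0.28 and 4 of the 6 were below 0.

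**Figure D3:**
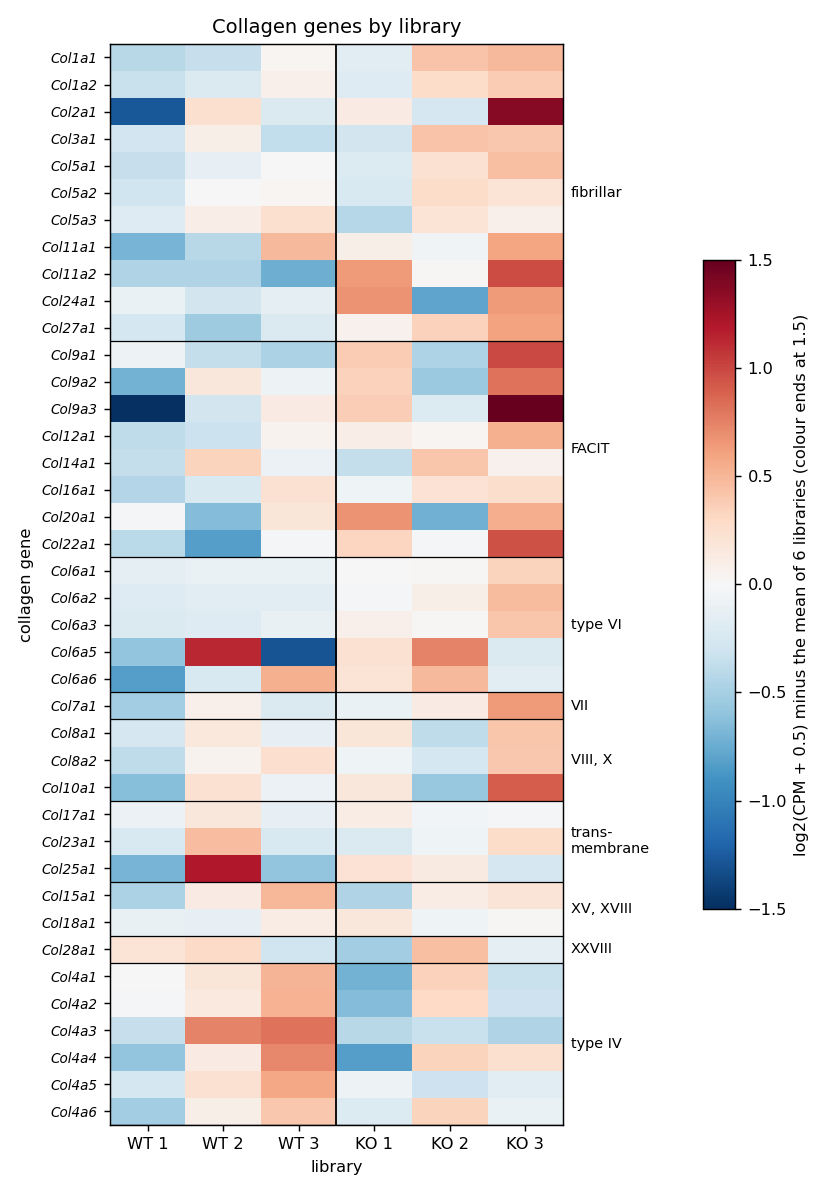
Each of the 40 collagen genes tested in each of the 6 libraries, as log2(CPM + 0.5) minus the mean of that gene over the libraries, grouped by collagen class; red is above and blue below the gene mean, and the colour scale ends at 1.5. The KO3 column is red for most classes and the WT1 column blue, while type IV is red in WT3 and mostly blue in KO1.

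The tested transmembrane collagens and types VIII, XV, XVIII and XXVIII had log2 fold changes between -0.13 and 0.15. Col17a1 (chromosome 19, 47646341 to 47692042, minus strand) was at 1843, 2200.4 and 1793 CPM in WT and 2108, 1900.5 and 1927 in KO. Its log2 fold change of 0.03 had a 95% interval of -0.26 to 0.32. Col23a1, a further transmembrane collagen, was at 40.2, 65.1 and 40.1 CPM in WT and 40.5, 45.1 and 57.3 in KO, and Col25a1 lay between 0.726 and 4.07 CPM. Col13a1, with 1 to 6 reads per library, was not tested. Col18a1, the source of endostatin, was at 106, 105 and 124 CPM in WT and 129, 109.8 and 116 in KO, with a 95% interval of -0.18 to 0.35, and the related Col15a1 was at 31.2, 47.6 and 62.0 CPM in WT and 31.7, 47.4 and 49.9 in KO. For neither did the groups separate. Col8a1 was at 281, 372 and 307 CPM in WT and 381, 256 and 447 in KO, and Col8a2 at 54.9, 74.5 and 85.1 CPM in WT and 68.7, 59.4 and 94.9 in KO. Col8a1 was lowest in KO2 and highest in KO3, so its KO libraries spanned the WT range. Col28a1, a collagen of peripheral nerve, was at 5.33, 5.70 and 3.63 CPM in WT and 3.03, 6.45 and 4.11 in KO.

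Single libraries shaped the family comparison. KO3 was the highest library in 20 of the 40 collagen genes (50.0%, against 13.6% of all genes), and WT1 was the lowest in 21 (52.5%, against 20.4%). Without KO3, the median collagen log2 fold change was 0.13, 28 of the 40 genes were above 0, and 2 were higher at an unadjusted p below 0.05, Col11a2 and Col27a1 (against 0.622% of all genes), and 0 lower (against 2.11%). Without WT1, the median was 0.15, 26 of the 40 were above 0, 2 were higher (against 1.56% of all genes) and 2 were lower (against 2.47%) at that threshold. Without both, an analysis added after the values were seen, the median was 0.04, 22 of the 40 were above 0, 1 was higher (against 1.36%) and 2 were lower (against 3.03%). The cartilage collagens then had a median of -0.02, and type IV one of -0.56 with all 6 genes below 0. Col6a1, Col6a2 and Col6a3 kept log2 fold changes of 0.11 to 0.58 over the alternative analyses, but none was at an unadjusted p below 0.05 with limma without trend, without WT1, without WT2, without KO3, or without both WT1 and KO3.

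Ratios between chains within a library do not depend on how the library was scaled. The ratios were chosen after the values were seen, and levels per kb of transcript were used. Of 12 ratios computed, 5 separated the groups and 7 did not. Col1a1 per Col4a1, a fibril chain over a basement membrane chain, was 4.77, 4.41 and 4.55 in WT and 9.35, 6.72 and 11.3 in KO, a mean of 4.58 ± 0.180 (SD, n = 3) against 9.11 ± 2.28 (SD, n = 3). Every KO ratio was above every WT ratio, as was the case when Col1a1 was divided by 24.8% of 14071 other genes. Col4a1 per Col4a2 was held at 1.19 to 1.29 in all 6 libraries, while each gene alone varied 2.34-fold and 2.25-fold. Col1a1 per Col1a2 was 0.974 to 1.02 in WT and 1.09 to 1.18 in KO. The chains are used in a fixed proportion in the type I molecule. Their RNA ratio was higher in each KO library than in any WT library, as for 24.8% of genes in place of Col1a2. Col6a3 per Col6a1 was 0.590, 0.587 and 0.621 in WT and 0.661, 0.626 and 0.666 in KO, a separation found for 31.3% of genes in place of Col6a1. Col6a1 per Col6a2 was 1.45 to 1.47 in WT and 1.26 to 1.41 in KO, with KO below WT, as for 0.519% of genes in place of Col6a2. That share is low in part because Col6a1 itself was above WT in every KO library. The ratio shows only that Col6a2 was further above WT than Col6a1. Col4a5 per Col4a6 was 0.869 to 0.941 in WT and 0.502 to 0.865 in KO, as for 10.1% of genes in place of Col4a6. The ratio of Col6a3 to Col4a1 did not separate the groups, at 0.731 to 0.964 in WT and 0.894 to 1.95 in KO, where KO2 lay among the WT libraries. The groups also overlapped for Col3a1 per Col1a1 (1.06 to 1.89 in WT, 1.28 to 1.40 in KO), Col5a1 per Col5a2 (0.788 to 0.849 and 0.837 to 1.03) and Col17a1 per Col1a1 (1.35 to 2.14 and 1.05 to 1.80). The same held for Col4a3 per Col4a4 (0.865 to 1.29 in WT, 0.443 to 1.09 in KO) and Col8a1 per Col8a2 (3.07 to 4.33 and 3.65 to 4.70).

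**Figure D4:**
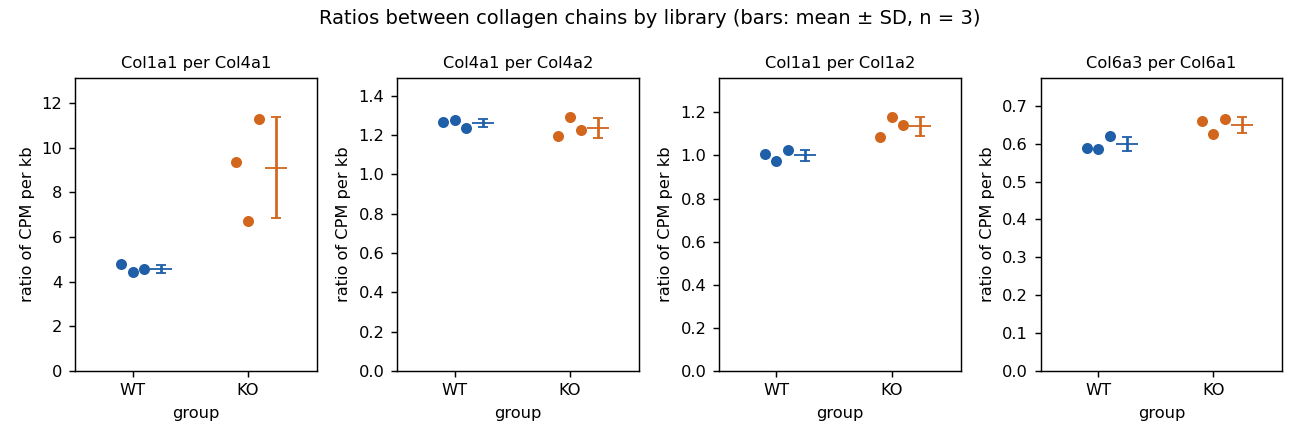
Ratios of CPM per kb between pairs of collagen genes in each library (points), with mean ± SD of 3 libraries per group (bars), WT in blue and KO in orange. The KO points lie above the WT points for Col1a1 per Col4a1 (6.72 to 11.3 against 4.41 to 4.77), Col1a1 per Col1a2 and Col6a3 per Col6a1, while Col4a1 per Col4a2 stays between 1.19 and 1.29 throughout.

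The lists of genes that act on or bind collagen had medians nearer to 0 than the fibrillar genes, a difference that was not tested. Of 31 collagen processing genes tested (prolyl and lysyl hydroxylases, chaperones, propeptide proteases and lysyl oxidases), 20 had a log2 fold change above 0, with a median of 0.04, and 2 were higher at an unadjusted p below 0.05 (6.45%, against 1.06% of all genes). Fkbp10, a chaperone of procollagen in the endoplasmic reticulum, was at 26.4, 22.8 and 21.1 CPM in WT and 28.4, 31.7 and 34.7 in KO (log2 fold change 0.42, 95% interval 0.07 to 0.78). Plod2, the lysyl hydroxylase of collagen telopeptides, was at 4.11, 5.77 and 10.4 CPM in WT and 11.1, 15.8 and 10.6 in KO (log2 fold change 0.91, 95% interval 0.12 to 1.70). In both genes and in Crtap all KO values lay above WT, which is 3 of the 31 genes (9.68%, against 2.95% of all genes). For Plod2 the gap was narrow, from 10.4 CPM in WT3 (63 reads) to 10.6 in KO3 (36 reads). Without WT replicate 2 no gene of the list was at an unadjusted p below 0.05. The collagen chaperone Serpinh1, in contrast, was at 81.1, 118 and 101 CPM in WT and 84.0, 120.2 and 120.2 in KO, a log2 fold change of 0.11.

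Of 9 collagen receptor genes tested, 6 had a log2 fold change below 0, with a median of -0.05. Itga2, the alpha chain of an integrin that binds type I collagen, was the receptor gene at an unadjusted p below 0.05, at 43.1, 46.4 and 34.1 CPM in WT and 31.9, 26.1 and 27.9 in KO (log2 fold change -0.51, 95% interval -0.88 to -0.14), and all KO values were below WT. Of 11 small leucine-rich proteoglycans tested, which bind the surface of fibrils, 8 were below 0, with a median of -0.07. Prelp was at 198, 268 and 246 CPM in WT and 127, 170.4 and 221 in KO (log2 fold change -0.48 ± 0.21). Of 16 partners of type IV collagen in basement membranes, 11 were below 0, with a median of -0.11. Lamb3, the beta chain of the laminin of the epidermal basement membrane, was at 168, 169.9 and 132 CPM in WT and 121, 113 and 123 in KO (log2 fold change -0.38, 95% interval -0.67 to -0.09), and the perlecan gene Hspg2 was at 396, 387 and 414 CPM in WT and 325, 449 and 439.5 in KO. Each of the last 3 lists held 1 gene lower at an unadjusted p below 0.05 (11.1%, 9.09% and 6.25%, against 1.82% of all genes) and none higher. None of the genes of these lists reached an adjusted p below 0.998 by limma with Benjamini-Hochberg adjustment.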

How the data were processed

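RNA from bitten ear skin of 3 WT and 3 KO mice was sequenced with paired reads. Per the study's methods, the authors trimmed the reads, aligned them to mm10 with STAR 2.7.3a, assigned them to Ensembl transcripts by expectation maximization in Partek Flow, so that reads fitting several genes may be split, summed them per gene and divided by the library total. The deposited values are CPM with an offset of 0.0001, which was removed. The smallest step between values gave the reads behind each library, and 91.9% to 92.8% of values below 20 reads lay within 0.1 of a whole read. The 3-read floor covers counting error only.

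Log2(CPM + 0.5) was compared with limma 3.58.1 (R 4.3.3, trended variance, two-sided, Benjamini-Hochberg adjustment over the 14306 genes that averaged 1 CPM or more), since the values are not counts. Fold changes on this scale understate those of low genes. The code was tested on simulated data. Levels per kb used the transcript with the longest coding sequence in GENCODE M21, and promoter windows came from RefSeq (GRCm38.p6), where 34 of the 42 members matched.

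The collagen genes, gene lists and tests were chosen with earlier results of these data known. Values per library were given for the 2 members of each class highest per kb, for members at an unadjusted p below 0.05 or with groups that did not overlap and, chosen after their values were seen, for most other members. Of each list, marker lists included, genes at an unadjusted p below 0.05 were named, and Serpinh1 and Hspg2 were added after their values were seen. The other marker lists had these medians of log2 fold change: Schwann cell 0.14, basal keratinocyte -0.01, macrophage -0.10, neutrophil -0.48 and hair follicle 2.89. The hair follicle median is of log2 values, with WT1 and WT2 near 0, while the mean CPM of all 14 of those genes was lower in KO. The alternatives were other pseudocounts, filters and scalings, limma without trend, limma voom on the recovered reads, a replicate block, 3 tissue scores as covariates, and leaving out each library.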

Additional observations from a re-analysis of the deposited data

How the results depend on the processing

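Under 19 alternative analyses no collagen gene reached an adjusted p below 0.05, and the number of collagen genes with a log2 fold change above 0 ranged from 22 to 34. The count of collagen genes higher at an unadjusted p below 0.05, which was 6, was 3 with limma without trend (against 1.31% of all genes), 15 with a skeletal muscle score as covariate (1.7%), 2 to 11 when a library was left out (0.622% to 2.2%) and 1 without both WT1 and KO3 (1.36%). The count lower, which was 0, was 1 without trend (2.26%), 4 with a hair follicle score (4.14%), 0 to 2 when a library was left out (1.03% to 2.77%) and 2 without both (3.03%). The median was 0.13 to 0.33 when a library was left out and 0.04 without both. The cause was not tested.

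Deviations from the group means had r = 0.38, -0.31 and -0.22 across genes for same-numbered WT and KO libraries. WT1 and KO1 correlated best with each other, while the other libraries did not correlate best with their own number. With 3 libraries per group this cannot show whether the numbers pair libraries, and the main test treated them as unpaired. With the replicate number as a block, 12 collagen genes were higher (against 1.24% of all genes), and the lists gave 1 processing gene lower and 2 proteoglycans lower (against 2.89%).

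The shares of all genes given above hold for the lists too, and with a cartilage score they were 1.24% higher and 2.82% lower. Of the lists, basement membrane partners lower (1) were 2 with a hair follicle score, 0 to 3 with a library left out and 0 without both WT1 and KO3. Processing genes higher (2) were 1 with a cartilage score, 0 to 3 with a library left out and 1 without both, and lower (0) were 0 to 1 and 1. Receptor genes higher (0) were 1 with a muscle score, and lower (1) were 0 to 2 with a library left out. Proteoglycans higher (0) were 4 with a muscle score. Proteoglycans lower (1) were 0 with the 5 CPM filter, median-of-ratios or quantile scaling, no trend, or a hair follicle or muscle score, 2 with a cartilage score, 0 to 2 with a library left out and 7 without both.

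The Adipoq log2 fold change was -7.88 with voom, -6.17 with a muscle score and -6.28 without both WT1 and KO3, at adjusted p of 0.488, 0.0800 and 0.328, and -6.54 to -5.94 with a library left out.

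Some single genes changed sign, Col2a1 (0.83), Col11a1 (0.42), Col9a2 (0.40) and Col10a1 (0.34) among them when libraries were left out, and others that were nearer 0. Col23a1 was 0.029 with median-of-ratios scaling, 0.037 with quantile scaling, 0.11 with a hair follicle score and 0.25 with a muscle score. With a muscle score Col15a1 was 0.28 and Col4a4 0.38. Col4a6 was -0.046 with voom, -0.20 with a hair follicle score and -0.048 with a cartilage score, and Col8a2 -0.022 and -0.080 with these scores. With a library, or WT1 and KO3 together, left out, the values ran from -0.27 to 0.71 for Col10a1, -0.018 to 0.77 for Col11a1, -0.11 to 0.27 for Col14a1, -0.48 to 0.13 for Col15a1, -0.027 to 0.12 for Col17a1, -0.25 to 0.23 for Col23a1, -0.39 to 0.095 for Col28a1, -0.078 to 1.16 for Col2a1, -0.67 to 0.20 for Col4a4, -0.24 to 0.22 for Col4a6, -0.12 to 0.38 for Col8a1, -0.31 to 0.20 for Col8a2 and -0.15 to 0.78 for Col9a2.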
